A study of Mus musculus with 12 samples.

Results

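The genes described are 8 that carry proximal tubular acid-base transport and ammonia production in the mouse kidney: the sodium-proton exchanger Slc9a3, the sodium-bicarbonate cotransporter Slc4a4, the carbonic anhydrases Car2, Car4, Car14 and Car15, the glutamine transporter Slc38a3 and the glutamate dehydrogenase Glud1. They were taken by symbol from a list of the pathway, matched to the Ensembl identifiers in the count files, and are 8 of the 57180 genes counted. All 8 passed the filter on low counts and were among the 17163 genes tested. RNA was sequenced from kidney tissue of 12 male C57BL/6J mice, young adults at the start, which carried no engineered allele. Each mouse received a daily intraperitoneal injection for 28 days. The Control group (n = 4) was given saline with Tween 80, and the groups 10CBD (n = 4) and 20CBD (n = 4) were given cannabidiol (CBD), a plant cannabinoid, at 10 or 20 mg per kg of body weight in the same vehicle. The comparisons ask whether the kidney transcriptome differed after repeated CBD and whether the dose mattered. Each dose was compared with the same 4 control mice, so the comparisons are not independent of each other.

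The proximal tubule reclaims most of the bicarbonate that the glomerulus filters. NHE3, the product of Slc9a3, secretes protons into the lumen in exchange for sodium, membrane-bound carbonic anhydrase turns the resulting carbonic acid into carbon dioxide and water, cytosolic carbonic anhydrase II rebuilds bicarbonate inside the cell, and NBCe1, the product of Slc4a4, carries it across the basolateral membrane to the blood. New bicarbonate comes from glutamine. SNAT3, the product of Slc38a3, takes glutamine up from the blood, mitochondrial enzymes, glutamate dehydrogenase among them, release ammonia from it, and phosphoenolpyruvate carboxykinase, the product of Pck1, carries the carbon skeleton on to glucose. This glutamine arm is the one that metabolic acidosis is known to induce.

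Of these genes, Slc38a3 alone passed the threshold, and only between 20CBD and Control: its mean level was 1.71 times that of the control mice. Glud1, the enzyme of the same arm, was higher in each of the 4 mice of 20CBD than in any of the 8 other mice but did not pass the threshold (edgeR adjusted p = 0.364). The transporters and carbonic anhydrases of bicarbonate reclamation gave no call at either dose. Against Control, edgeR called 0.0291% of all genes tested in 10CBD and 0.303% in 20CBD. All 6 genes of bicarbonate reclamation were lower, on average, in the libraries with a low share of mitochondrial counts, Car4 by less than the spread between mice.

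Promoter sequence was matched in RefSeq for 6 of the 8 genes, on the build GRCm38.p6, while the count files were made on GRCm39. Stretches are shown for Glud1, 1 of the pair of glutamine genes, and for Slc9a3, where the only E-box of the set was found. The motifs searched on both strands, in the 250 bases upstream of each RefSeq start, were the E-box CACGTG, the D-box TTATGTAA and the GC box GGGCGG. None of these motifs overlaps another in the stretches shown. The Glud1 stretch is at chr14:34310477-34310625 on the plus strand. Its 149 bases end where the first annotated transcript begins, 101 bases before the RefSeq start. The Slc9a3 stretch is at chr13:74121314-74121343 on the plus strand and ends 69 bases before the RefSeq start. Capitals mark the GC boxes in the first and the E-box in the second.
Glud1: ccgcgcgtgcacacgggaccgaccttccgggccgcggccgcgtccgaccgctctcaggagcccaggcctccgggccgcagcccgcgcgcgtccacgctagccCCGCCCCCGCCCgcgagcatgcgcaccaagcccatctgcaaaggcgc
Slc9a3: actgtttgcgttCACGTGtgcgcagcgggg
The Glud1 stretch holds a pair of adjacent GC boxes on the minus strand, and another lies outside it, 23 bases upstream of the RefSeq start. GC boxes were also found for Slc9a3, at 71, 58 and 16 bases upstream, and for Slc4a4, at 115. The GC box at 71 begins in the last bases of the Slc9a3 stretch and is not in capitals. GC boxes are common in mouse promoters, with a match in 32.7% of the 32851 windows of the same length. An E-box, the element bound by BMAL1 and CLOCK among other factors, was found in 6.02% of windows and a D-box in 0.819%. No D-box was found in the windows of the 6 genes. These are matches of letters and were not tested for binding.

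The 12 libraries held between 15417867 and 23532088 counts on genes. The share of those counts on mitochondrial genes ran from 3.53% to 23.4%, and 4 libraries stood apart with 5.77% or less (1 of Control, 2 of 10CBD and 1 of 20CBD), while the 8 others had at least 12.8%. No library repeated the counts of another. The proximal tubule was well represented: 12 of 12 of its marker genes were tested, and their summed level ran from 31980 to 35000 CPM (counts scaled to library size, with TMM factors) in Control, from 32200 to 36370 in 10CBD and from 29630 to 37020 in 20CBD. In bulk tissue, fewer cells of a type and less RNA per cell cannot be told apart.

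Levels of the 8 genes were compared with each other as CPM per kb of annotated exon, over all 12 mice. Slc4a4 had the highest level, 79.5 ± 18.4 (SD, n = 12), followed by Glud1 with 61.7 ± 9.01, Car4 with 49.1 ± 8.18, Car2 with 45.8 ± 8.73 and Car14 with 24.6 ± 4.87. Slc9a3 with 9.20 ± 2.19 and Slc38a3 with 8.04 ± 2.25 were lower, and Car15 was close to the limit of the counting with 0.378 ± 0.169. The differences of Slc4a4 from Glud1, of Glud1 from Car4, of Car4 from Car2 and of Slc9a3 from Slc38a3 were smaller than the sum of their SDs. Car14 stood apart from Car2 and from Slc9a3 per kb of exon. A scale per kb of the canonical transcript was added after the data were seen. On it, Car14 (33.45 ± 6.64) differed from Slc9a3 (27.16 ± 6.46) by less than the sum of their SDs. Car4 came before Glud1 (112 against 108), so the order of these genes depends on the length used. It also differed between groups: Car4 (56.1 per kb of exon) was close to Glud1 (54.7) in Control, and Slc38a3 (10.7) was above Slc9a3 (9.37) in 20CBD.

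**Figure D1:**
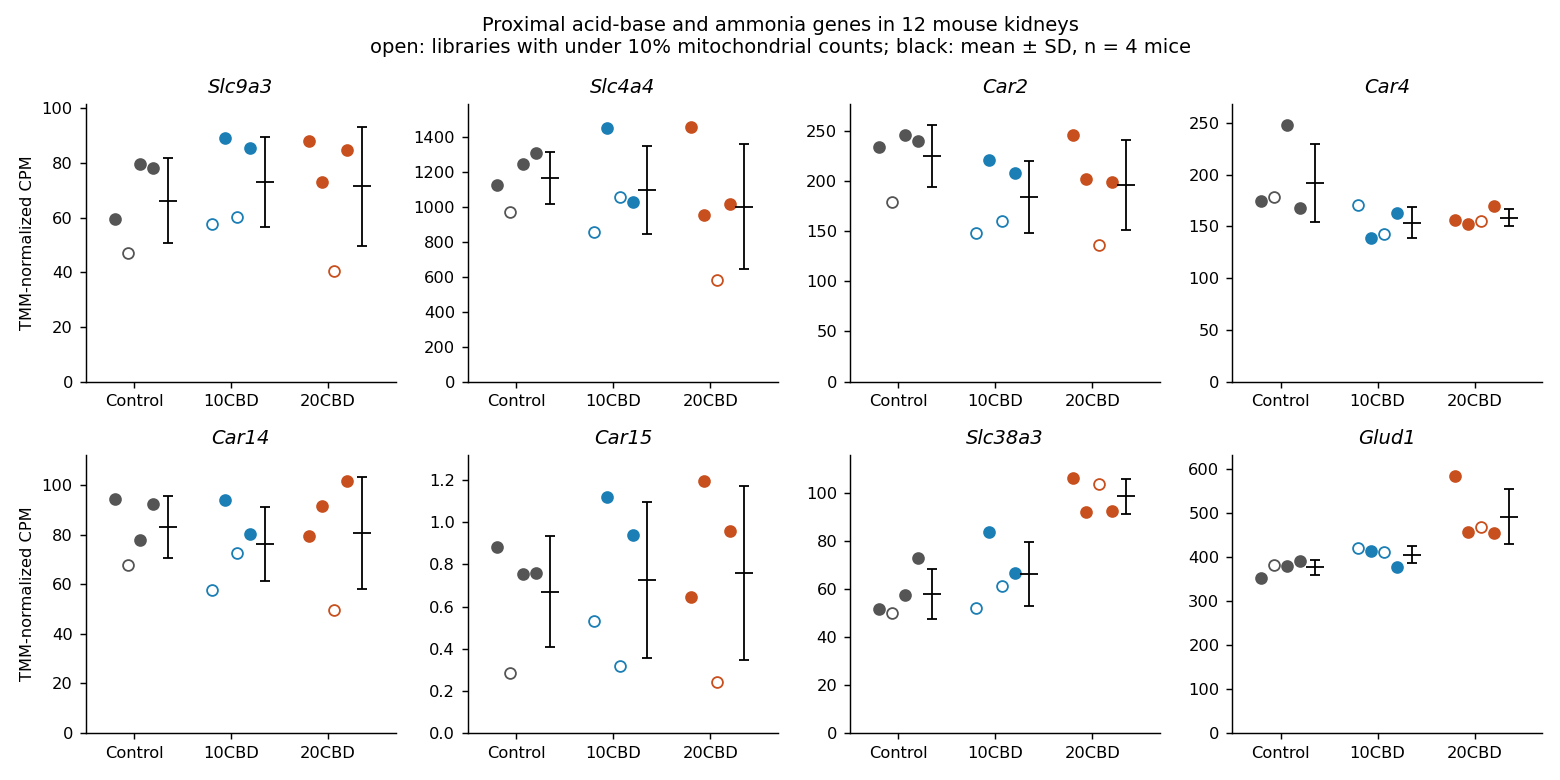
TMM-normalized CPM of the 8 genes in each of the 12 mice, by group. Each circle is 1 mouse, open circles are libraries with under 10% mitochondrial counts, and black marks give the mean ± SD of 4 mice. The 4 mice of 20CBD lie above all other mice for Slc38a3 (lowest 92.3 against 83.9) and for Glud1 (lowest 454 against 419), while the groups overlap for the other 6 genes.

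Slc38a3 (ENSMUSG00000010064, GRCm39 chr9:107527815-107547018, minus strand) encodes SNAT3, the basolateral transporter that brings glutamine into proximal tubule cells. In Control its level was 51.7, 49.8, 57.4 and 73.0 CPM in mice 1 to 4. In 10CBD it was 52.3, 83.9, 61.3 and 66.8 CPM. In 20CBD it was 106, 92.3, 104 and 92.7 CPM. The 20CBD mice were all above the 8 other mice, and the spread among them was small, whereas 10CBD and Control overlapped. A pattern of this kind, with the 4 mice of 20CBD above all 8 others, was seen in 0.548% of genes tested, among them Slc38a3 and Glud1.

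After 20 mg CBD/kg b.w., Slc38a3 rose from 58.0 ± 10.5 to 98.8 ± 7.32 CPM (mean ± SD, n = 4 each). The log2 fold change was 0.77 with a standard error (SE) of 0.15 and a 95% interval from 0.44 to 1.10, which corresponds to 1.36-fold to 2.14-fold. It was called at an adjusted p of 0.0763 (edgeR quasi-likelihood test, Benjamini-Hochberg over all genes, called under 0.1), and the exact permutation test gave p = 0.0286, the smallest that 4 mice against 4 can give. Called genes were 0.303% of those tested in this comparison, 0.169% as higher and 0.134% as lower. Slc38a3 ranked 36 by p-value among all genes.

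After 10 mg CBD/kg b.w., Slc38a3 was at 66.1 ± 13.3 CPM (mean ± SD, n = 4), a log2 difference from Control of 0.19 (SE 0.15) with an interval from -0.14 to 0.52 and an adjusted p of 0.907 by edgeR. A level up to 1.43-fold that of Control lay within this interval. Between the doses, 20CBD lay above 10CBD by 0.58 (SE 0.15) on the log2 scale, with all 4 mice higher (exact permutation p = 0.0286), as for 1.70% of genes tested, but edgeR's adjusted p was 0.758. In that comparison edgeR called 0 genes (0.0%), while 1083 (6.31%) had an unadjusted p under 0.05 and DESeq2 called 12 (0.0986%).

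For Slc38a3 in 20CBD against Control, DESeq2 gave an adjusted p of 0.0017, where it called 1.13% of genes. The edgeR call of Slc38a3 was close to the threshold. It was kept without control mouse 4 (adjusted p = 0.0788), 10CBD mouse 1 (0.0542) or 10CBD mouse 2 (0.0440). It was lost without control mice 1, 2 or 3 (0.261, 0.214 and 0.186), 10CBD mice 3 or 4 (0.107 and 0.112) and 20CBD mice 1 to 4 (0.159, 0.167, 0.141 and 0.177), although the log2 fold change stayed between 0.70 and 0.90. Among the 8 libraries with at least 10% mitochondrial counts, the level was 60.7 ± 11.0 CPM in Control (n = 3), 75.4 in 10CBD (n = 2) and 97.1 ± 8.02 in 20CBD (n = 3), and the call was kept (log2 fold change 0.68, edgeR adjusted p = 0.0419, with 0.611% of 17512 genes called).

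**Figure D2:**
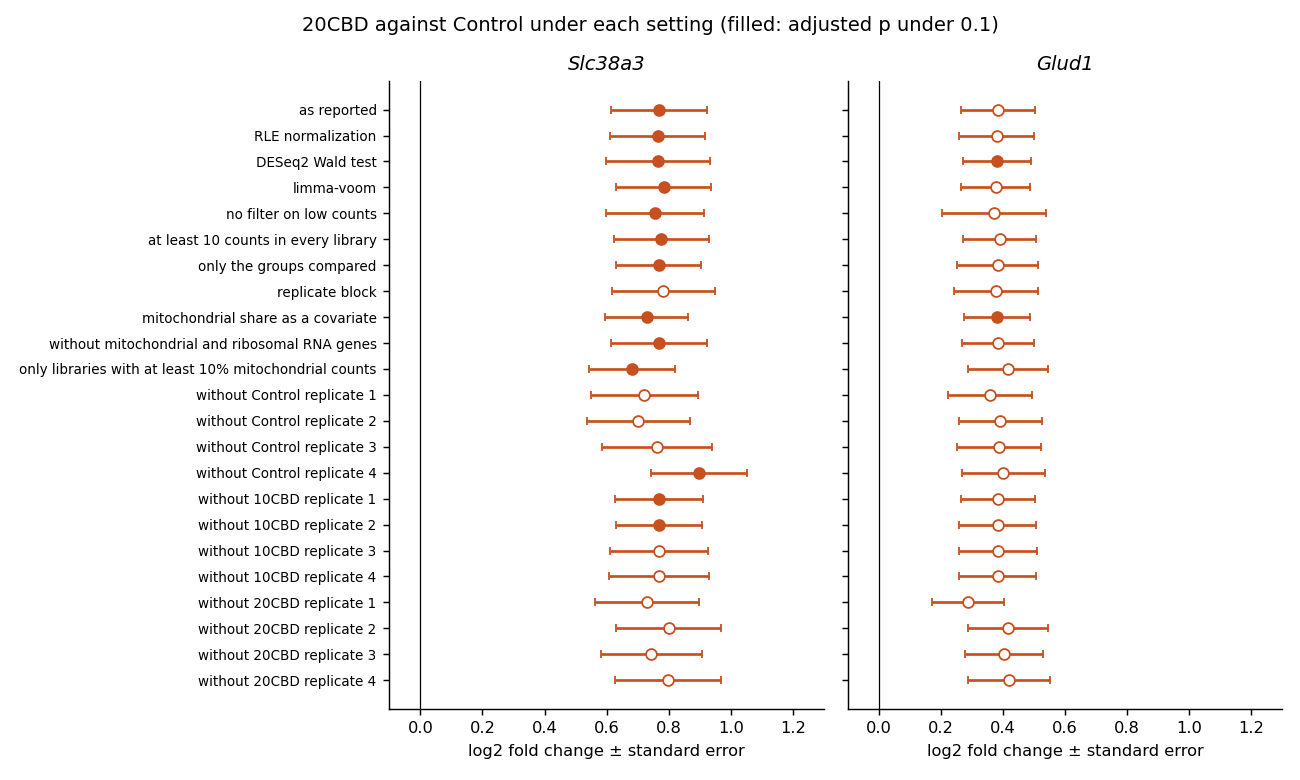
Log2 fold change of Slc38a3 and Glud1 between 20CBD and Control with its standard error, for the reported fit and each alternative. Filled points have an adjusted p under 0.1. Slc38a3 stays between 0.68 and 0.90 throughout and is called in the reported fit and 12 alternatives, while Glud1 stays between 0.29 and 0.42 and is called in 2.

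Glud1 (ENSMUSG00000021794, GRCm39 chr14:34032583-34067642, plus strand) encodes mitochondrial glutamate dehydrogenase, which releases ammonia from glutamate. Its level was 352, 382, 379 and 390 CPM in control mice 1 to 4. In 10CBD it was 419, 413, 410 and 376 CPM. In 20CBD it was 584, 457, 469 and 454 CPM, with mouse 1 well above the 3 others. The 20CBD mice lay above all mice of Control and of 10CBD, and 10CBD overlapped with Control.

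The mean of Glud1 was 376 ± 16.6 CPM in Control and 491 ± 62.3 CPM in 20CBD (SD, n = 4 each), a log2 difference of 0.38 (SE 0.12) with an interval from 0.13 to 0.64. edgeR did not call it (adjusted p = 0.364, unadjusted 0.00552), and the exact permutation test gave its smallest p of 0.0286. In this comparison 2.67% of genes had all 4 mice of 20CBD above all 4 control mice. DESeq2 called Glud1 with an adjusted p of 0.0621, where it called 1.13% of genes. With the mitochondrial share as a covariate the adjusted p was 0.0567, where 8.08% of genes were called. Without 20CBD mouse 1 the log2 difference was 0.29. At the lower dose the mean was 405 ± 19.5 CPM (n = 4), 0.11 above Control on the log2 scale (SE 0.12, adjusted p = 0.934 by edgeR). The exons of Glud1 share 717 bases with Shld2 on the opposite strand and 303 bases with the pseudogene Gm3219, with median counts of 225.5 and 98 per library against 6254 to 9964 for Glud1, and their part in its level was not tested.

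Slc9a3 (ENSMUSG00000036123, GRCm39 chr13:74269360-74317561, plus strand) encodes NHE3, the apical exchanger that secretes most of the protons of the proximal tubule. Its level was 59.6, 47.2, 79.8 and 78.2 CPM in Control. In 10CBD it was 57.8, 89.1, 60.3 and 85.6 CPM, and in 20CBD 88.0, 73.1, 40.4 and 84.9 CPM. The 3 groups overlapped over nearly their whole range. The log2 difference from Control was 0.14 (SE 0.23, 95% interval -0.36 to 0.64) for 10CBD and 0.11 (SE 0.23, interval -0.39 to 0.61) for 20CBD, with edgeR adjusted p-values of 0.949 and 0.940. Changes of up to about 1.56-fold at the lower dose and 1.53-fold at the higher dose were within these intervals.

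Slc4a4 (ENSMUSG00000060961, GRCm39 chr5:89034345-89387514, plus strand) encodes NBCe1, through which bicarbonate leaves the cell. It was the most abundant of the 8 genes per kb. Its level was 1128, 972, 1249 and 1310 CPM in Control, 858, 1452, 1060 and 1028 CPM in 10CBD, and 1459, 957, 580 and 1018 CPM in 20CBD. The highest and the lowest value of all mice were both in 20CBD. The log2 difference from Control was -0.08 (SE 0.23) for 10CBD and -0.22 (SE 0.23, interval -0.71 to 0.28) for 20CBD, with edgeR adjusted p-values of 0.977 and 0.865. The sign at the lower dose was not stable, since the difference was 0.0085 within the libraries with at least 10% mitochondrial counts.

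Car2 (ENSMUSG00000027562, GRCm39 chr3:14951317-14967568, plus strand) encodes the cytosolic carbonic anhydrase of the proximal tubule, which is also abundant in intercalated cells and erythrocytes. Its level was 234, 179, 246 and 240 CPM in Control, 148, 221, 160 and 208 CPM in 10CBD, and 246, 202, 136 and 199 CPM in 20CBD. The means were 225 ± 30.8, 184 ± 35.7 and 196 ± 45.1 CPM (SD, n = 4 each), and the groups overlapped. The log2 difference from Control was -0.29 (SE 0.18) for 10CBD and -0.20 (SE 0.18) for 20CBD, with edgeR adjusted p-values of 0.894 and 0.835. With the mitochondrial share as a covariate, the difference at the higher dose was -0.35 and was called (adjusted p = 0.0672), in a fit where 8.08% of all genes were called. Within the 8 libraries with at least 10% mitochondrial counts it was -0.15 (adjusted p = 0.746). The 7 intercalated cell markers summed to 407 to 522 CPM in Control, 381 to 425 in 10CBD and 388 to 414 in 20CBD, and the 5 erythrocyte markers to 627 to 1470, 639 to 1169 and 711 to 1693 CPM, with no gene of either list at 0 in all mice of a group. Their part in the level of Car2 was not tested.

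Car4 (ENSMUSG00000000805, GRCm39 chr11:84848020-84856879, plus strand) encodes a carbonic anhydrase anchored to the outer face of the membrane, which serves bicarbonate reclamation at the brush border. Its level was 174, 178, 248 and 168 CPM in Control, 170, 139, 143 and 163 CPM in 10CBD, and 157, 152, 155 and 170 CPM in 20CBD. Control mouse 3 was the highest of all, and 2 mice of the treated groups, 1 at each dose, were above the lowest control mouse. The means were 192 ± 37.5, 154 ± 15.3 and 158 ± 7.93 CPM (SD, n = 4 each). The log2 difference was -0.32 (SE 0.14, interval -0.61 to -0.03) for 10CBD and -0.28 (SE 0.14, interval -0.57 to 0.01) for 20CBD. Neither was called by edgeR (adjusted p = 0.828 and 0.612), and the exact permutation test gave p = 0.0571 for each. Without control mouse 3 the log2 difference was -0.18 for 10CBD (adjusted p = 0.996) and -0.13 for 20CBD (adjusted p = 0.895). At the lower dose edgeR called 0.0291% of genes, DESeq2 called 0.258%, and 5.67% had an unadjusted edgeR p under 0.05, among them Car4. The 4 markers of the first proximal segment were Slc5a2, Slc5a12, Slc34a1 and Gatm, and the study named Gatm among the genes that CBD altered. Their sum was 3809 to 4914 CPM in Control, 3129 to 3828 in 10CBD and 3164 to 3694 in 20CBD. Its median was lower in the treated groups, as for Car4, but 10CBD overlapped with Control. The part of these markers in the difference of Car4 was not tested.

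Car14 (ENSMUSG00000038526, GRCm39 chr3:95805079-95812646, minus strand) encodes a transmembrane carbonic anhydrase. Its level was 94.6, 67.9, 78.0 and 92.3 CPM in Control, 57.9, 93.9, 72.8 and 80.2 CPM in 10CBD, and 79.5, 91.5, 49.7 and 102 CPM in 20CBD. The groups overlapped, and the log2 differences from Control were -0.13 (SE 0.20) and -0.04 (SE 0.20) for the lower and the higher dose, with edgeR adjusted p-values of 0.947 and 0.980. The exons of Car14 share 486 bases with Aph1a on the opposite strand, and those of Slc9a3 share 380 bases with Exoc3. The strand setting of the counting is not given in the sources used here, so how reads in the shared bases were assigned is not known.

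Car15 (ENSMUSG00000090236, GRCm39 chr16:17653140-17656228, minus strand) encodes a membrane-anchored carbonic anhydrase of mice. It had 4 to 21 counts per library, which is 0.240 to 1.20 CPM. The means were 0.671 ± 0.263 CPM in Control, 0.727 ± 0.369 in 10CBD and 0.760 ± 0.414 in 20CBD (SD, n = 4 each), and the groups overlapped. The log2 differences from Control were 0.07 (SE 0.50) and 0.18 (SE 0.50), with 95% intervals that reached from 0.502-fold to 2.20-fold at the lower dose and from 0.543-fold to 2.36-fold at the higher dose. Changes within these limits are not excluded by these data. In addition, 1253 of the 1906 bases of its annotated exons also belong to the gene model Gm20518 on the same strand, so its level is uncertain.

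**Figure D3:**
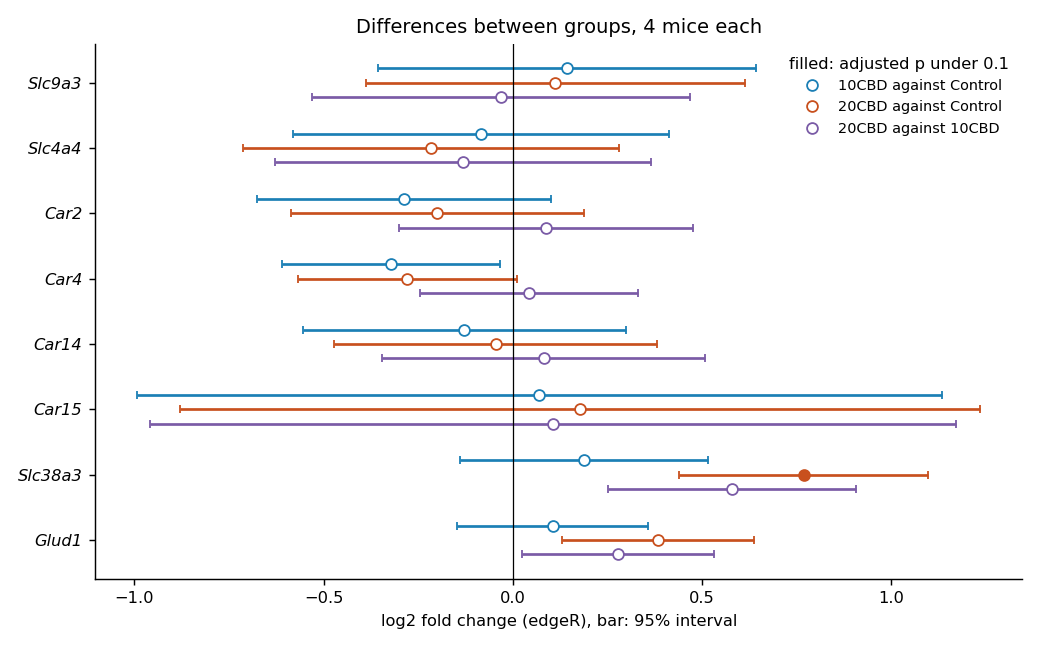
Log2 fold change of each gene between groups, with 4 mice each. Points are edgeR estimates, bars their 95% intervals, and the filled point has an adjusted p under 0.1. Slc38a3 between 20CBD and Control (0.77) is the only filled point. The bars of Slc38a3 and Glud1 lie above 0 in 20CBD against Control and against 10CBD. Those of the transporters and carbonic anhydrases of bicarbonate reclamation, other than Car4 in 10CBD against Control, cross 0.

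Over the 8 genes, 0 were called in 10CBD against Control, 1 in 20CBD against Control and 0 between the doses. Of all genes tested, edgeR called 0.0291%, 0.303% and 0.0% in these comparisons. Without adjustment, 1, 2 and 2 of the 8 had a p under 0.05, where 5.67%, 8.45% and 6.31% of all genes did. The median log2 difference of the 8 genes was -0.01 in 10CBD and 0.03 in 20CBD against Control, beside medians of 0.01 and 0.01 over all genes, with 4 genes above 0 and 4 below it at each dose. The list as a whole thus had medians near those of all genes. At the higher dose Slc38a3, Glud1, Slc9a3 and Car15 were above Control and Slc4a4, Car2, Car4 and Car14 below it, of which only the difference of Slc38a3 was called.

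The levels of several of these genes went with the mitochondrial share of the library rather than with the group. In the 4 libraries with under 10% mitochondrial counts, Car2 was at 156 ± 18.3 CPM, against 225 ± 19.5 CPM in the 8 others (mean ± SD). Slc9a3 was at 51.4 ± 9.29 against 79.8 ± 9.78 CPM, Slc4a4 at 867 ± 209 against 1200 ± 197 CPM, Car14 at 62.1 ± 10.3 against 89.0 ± 8.64 CPM and Car15 at 0.343 ± 0.129 against 0.908 ± 0.188 CPM. The 4 libraries lay below all 8 others for Car2, Car14 and Car15, a pattern seen in 6.65% of all genes tested, and overlapped with them for Slc9a3 and Slc4a4. These libraries are spread over all 3 groups.

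The differences of Car4, Slc38a3 and Glud1 between these libraries were smaller than the spread between mice. Car4 was at 162 ± 15.7 against 171 ± 33.0 CPM, Slc38a3 at 66.8 ± 25.1 against 78.0 ± 19.0 CPM and Glud1 at 420 ± 36.0 against 426 ± 73.9 CPM in the same libraries. Within Control and within 10CBD, the libraries with a low share had the lowest levels of Slc38a3 (49.8 CPM, and 52.3 and 61.3 CPM), whereas in 20CBD the library with a low share had 104 CPM, the second highest of the 4. As a description over the 12 libraries, after subtraction of group means, the Pearson correlation of log2 CPM with the mitochondrial percentage was 0.91 for Car2, 0.86 for Slc9a3, 0.86 for Car15, 0.74 for Slc4a4 and 0.72 for Car14. It was 0.41 for Slc38a3, 0.12 for Car4 and 0.05 for Glud1. The 20CBD library with a low share, that of mouse 3, had the lowest level of Slc9a3, Slc4a4, Car2, Car14 and Car15 of all 12 mice, yet 104 CPM of Slc38a3 and 469 CPM of Glud1, both above every mouse of Control and 10CBD.

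**Figure D4:**
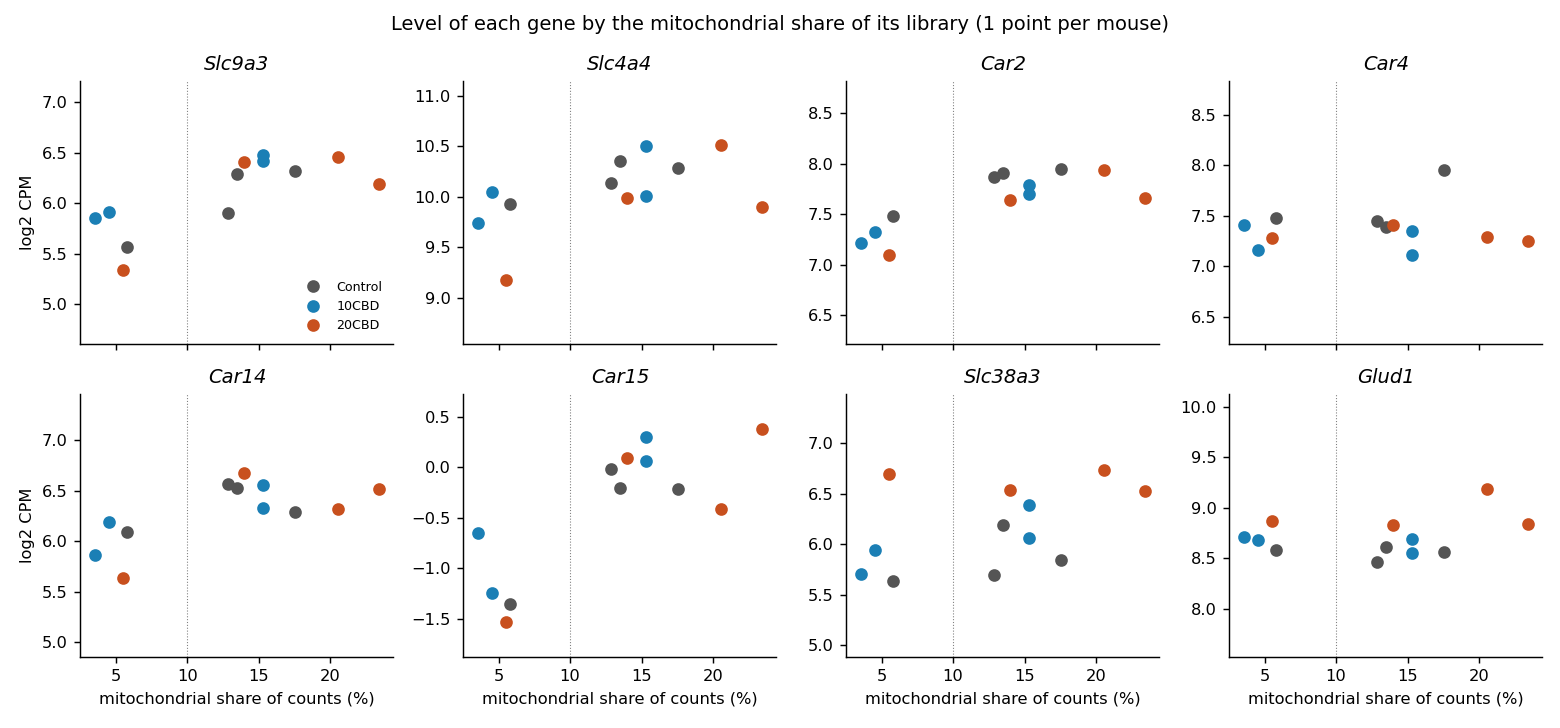
Log2 CPM of each gene against the mitochondrial share of the counts of its library in percent, with 1 point per mouse, coloured by group. Every panel spans at least 2.6 log2 units, and the dotted line is at 10%. Car2, Car14 and Car15 are lower in all 4 libraries left of the line, while Slc38a3 is high in the 4 mice of 20CBD on both sides of it.

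Over the 12 libraries, with group means subtracted, the correlation of log2 CPM was 0.94 between Slc9a3 and Car2, 0.90 between Slc4a4 and Car2 and 0.87 between Slc9a3 and Slc4a4, while Car4 lay between -0.33 and 0.19 with the other 7 genes. The 28 pairs ran from -0.33 to 0.94 with a median of 0.40. Over the 8 libraries with at least 10% mitochondrial counts the median was -0.05 and the order was another, with the highest values between Car2 and Glud1 (0.96) and between Slc4a4 and Glud1 (0.94) and the lowest between Car2 and Car15 (-0.79). Between Slc38a3 and Glud1 the correlation was 0.25, 0.80 without subtraction of group means and 0.70 in those 8 libraries. All points share the mitochondrial share and depth of their libraries.

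Among all genes tested, those with the closest pattern by the same measure were Qser1 (0.99), Tcf12 (0.99) and Pnpt1 (0.98) for Car2, and Rasal2 (0.98), Rabgap1 (0.98) and Zbtb11 (0.97) for Slc9a3. For Slc4a4 they were Blzf1 (0.98), Arhgef12 (0.97) and Erbb3 (0.96). Slc38a3 was closest to Zfp451 (0.94), Clcn5 (0.92), which encodes an endosomal chloride-proton exchanger of the proximal tubule, and Gm42650 (0.92), and Glud1 was closest to Mdm2 (0.88), Mnat1 (0.88) and Gm63314 (0.87). Car14 was closest to 6430511E19Rik (0.97), Npc1 (0.96) and Gm11844 (0.95), Car15 to Zfp97 (0.98), Rpl10-ps6 (0.97) and Nhsl1 (0.97), and Car4 to Wnt16 (0.86), Gm42814 (0.85) and Gm21769 (0.83). None of the 8 genes had another of them among its 3 closest. These lists depend on the measure: for Slc38a3 and Glud1, all 3 genes were others without subtraction of group means, and again others in the 8 libraries with at least 10% mitochondrial counts.

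The surrounding pathway was read from 6 lists of 81 genes, of which 77 were tested. In 20CBD against Control 1 of the 77 was called, as lower, and 14 had an unadjusted p under 0.05, where edgeR called 0.303% of all genes and 8.45% had such a p. In 10CBD against Control and between the doses 0 were called. At an unadjusted p under 0.05 there were 3 and 8, beside 5.67% and 6.31% of all genes. Over all genes, edgeR called 0.0291% and 0.0% in these comparisons, and DESeq2 called 40 and 12 genes. The median log2 difference of the 77 genes was -0.02 in 10CBD and -0.06 in 20CBD, beside 0.01 and 0.01 over all genes.

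In the list of glutamine and ammonia handling, 0 of 14 genes tested were called, 7 were above 0 and 7 below it in 20CBD, and the median was 0.00. Pck1, the gluconeogenic enzyme that acidosis induces together with Slc38a3, had the largest difference. Its level was 2687, 3649, 3815 and 2645 CPM in Control, 4460, 5156, 5089 and 3985 CPM in 10CBD, and 5816, 4526, 5339 and 4367 CPM in 20CBD. All 4 mice of 10CBD were above all 4 control mice, as for 1.55% of genes, and so were all 4 of 20CBD, as for 2.67%. The share of genes with both patterns was not counted. The log2 difference was 0.55 (SE 0.18) for 10CBD and 0.65 (SE 0.18) for 20CBD, with edgeR adjusted p-values of 0.796 and 0.295. DESeq2 gave an adjusted p of 0.0166 for 20CBD.

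Among the other carbonic anhydrases, 9 of 12 were tested and Car3, an isozyme abundant in adipocytes and muscle, fell by 1.97 on the log2 scale in 20CBD (SE 0.36, edgeR adjusted p = 0.0516). Its level was 55.7, 69.2, 25.6 and 74.8 CPM in Control, 39.6, 41.1, 16.5 and 18.2 CPM in 10CBD, and 12.7, 13.6, 9.66 and 21.7 CPM in 20CBD, all 4 below the control mice, as for 2.63% of genes. The summed level of 5 adipocyte markers (4 tested), none at 0 in all mice of a group, ran from 6.50 to 96.5 CPM in Control, from 0.949 to 34.9 in 10CBD and from 0.420 to 18.4 in 20CBD, and its part in the difference of Car3 was not tested. DESeq2 gave Car3 an adjusted p of 2.46e-05 in 20CBD, where it called 1.13% of genes. The edgeR call was kept in 6 of the 12 fits that left out 1 mouse. It was lost without control mice 1, 2 or 4 (adjusted p = 0.129, 0.142 and 0.165) and without 20CBD mice 1, 2 or 3 (0.132, 0.191 and 0.117).

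No gene was called in the 4 other lists. Of the sodium-proton exchangers and their scaffolds, 4 of 11 were above 0 and 7 below it in 20CBD, with a median of -0.16, and the largest difference was that of Slc9a4 (-0.85, SE 0.42, adjusted p = 0.615), which was at 0.300 to 1.93 CPM only. Of the bicarbonate and chloride exchangers, 6 of 13 were above 0, the median was -0.14 and Slc4a5, a further sodium-bicarbonate cotransporter at 1.05 to 2.75 CPM, differed most (0.71, SE 0.31, adjusted p = 0.543). Of the genes of acid and bicarbonate sensing, 8 of 13 were above 0, the median was 0.04 and Ednrb, the endothelin B receptor, differed most (0.55, SE 0.22, adjusted p = 0.511). Of the subunits of the vacuolar proton ATPase, which secretes protons without sodium, 5 of 17 were above 0, the median was -0.10 and Atp6v1b2 differed most (-0.29, SE 0.12, adjusted p = 0.522). All adjusted p-values are from edgeR.

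**Figure D5:**
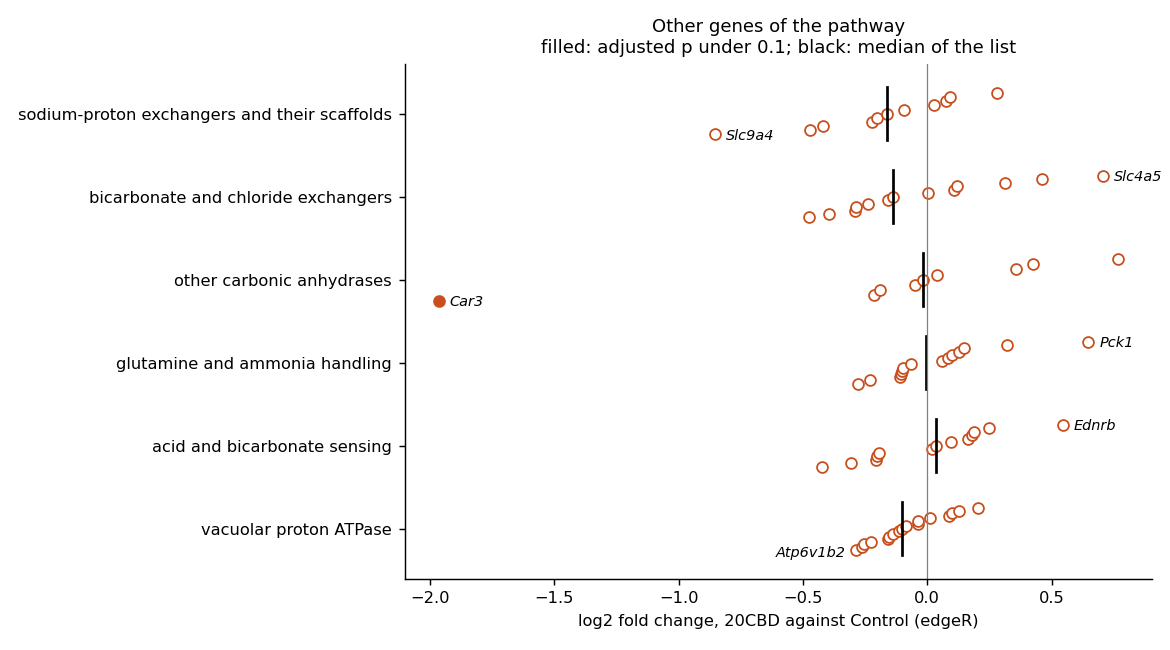
Log2 fold change between 20CBD and Control for the 77 tested genes of 6 lists, with 1 circle per gene. Black lines give the list medians, the filled circle has an adjusted p under 0.1, and the named gene of each list has the largest absolute difference. Car3 (-1.97) is the only filled circle, and the medians lie between -0.16 and 0.04.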

How the data were processed

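Poly(A) RNA of 1 kidney sample per mouse was sequenced in 12 libraries. The authors trimmed the reads, mapped them with STAR 2.7.5c to GRCm39 and counted them with HTSeq 1.99.2. The deposited files hold raw counts for 57180 Ensembl genes. Summary lines were left out. The annotation release, strand setting and removal of duplicate molecules are not given in the sources used here. Symbols and positions came from GENCODE vM39, in which 99.0% of identifiers were found, with 99.95% of all counts.

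Counts were analysed with edgeR 4.0.16 in R 4.3.3: filterByExpr, TMM normalization and quasi-likelihood tests, with group means fitted over all 12 libraries. P-values were adjusted by Benjamini-Hochberg over 17163 genes and called under 0.1. Permutation tests were exact and two-sided (70 arrangements). DESeq2 1.42.0, limma-voom (limma 3.58.1) and other alternatives are given in the closing section. Log2 CPM used a prior count of 2.

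The genes and lists were chosen with earlier results of these data known. Named genes outside the 8 were those called, those with the largest absolute log2 difference in 20CBD of each list, and the 3 closest in pattern to each gene. P-values measure the spread between mice.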

Additional observations from a re-analysis of the deposited data

Results flagged for a closer look

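Within the 24 groups of 4 mice (8 genes, 3 groups), 4 held a library far from the 3 others by Dixon's criterion at its 95% level, applied to log2 CPM, where chance gives about 1 in 20. In Control, Car2 was lowest in mouse 2 at 179 CPM against 234 to 246 CPM in the others, and Car15 was lowest in the same mouse at 0.286 CPM. This is the control library with 5.77% mitochondrial counts. Car4 was highest in control mouse 3 at 248 CPM, against 168 to 178 CPM in the others. In 20CBD, Glud1 was highest in mouse 1 at 584 CPM, against 454 to 469 CPM in the others.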

How the results depend on the processing

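Of the 8 genes, 1 was called between 20CBD and Control, and 2 with DESeq2, 3 with the mitochondrial share as a covariate, and 0 with the replicate number as a block or at an adjusted p under 0.05 (0 to 1 with each mouse left out). Between the doses 0 were called, and 1 without the filter on low counts (Slc38a3, 0.59, adjusted p = 0.0378). Over all genes, 10CBD against Control gave 5 calls, 40 with DESeq2, 331 without the filter, 15 with the covariate, 26 in the libraries with at least 10% mitochondrial counts, 3 at 0.05 and 2 to 8 with a mouse left out. 20CBD against Control gave 52 calls, 182 with DESeq2, 416 without the filter, 27 with the block, 1386 with the covariate, 107 in those libraries, 23 at 0.05 and 14 to 54 with a mouse left out. Between the doses 0 were called, 12 with DESeq2, 256 without the filter and 62 with the covariate.

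The labels do not say whether the replicate numbers pair the mice. Of 12 same-numbered pairs, 4 had a correlation over 0.1 (-0.33 to 0.32). These correlations cannot decide it, since libraries with different numbers and a low mitochondrial share were also alike (0.45 for control mouse 2 and 20CBD mouse 3). With the block, Slc38a3 in 20CBD had a log2 difference of 0.78 and an adjusted p of 0.152. Of the 10 alternative fits other than those with 1 mouse left out in turn, 9 called Slc38a3 and 10 called Car3 in 20CBD.

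The sign changed only for differences of at most 0.18 in size in the reported fit. The changed value was in places larger, down to -0.5842 for Car15. With the covariate, Slc4a4 in 10CBD was at 0.0324, Slc9a3 in 20CBD at -0.0823 and Car15 in 20CBD at -0.2561, and between the doses Car2 was at -0.1668, Car14 at -0.1499 and Car15 at -0.5842. In the libraries with at least 10% mitochondrial counts, Slc4a4 in 10CBD was at 0.0085, Car14 in 20CBD at 0.0443 and Car15 between the doses at -0.1339. Car15 in 10CBD was at -0.0045 with limma-voom and -0.0405 with the block. With a mouse left out, the ranges that crossed 0 were in 10CBD Slc4a4 (-0.25 to 0.0162) and Car15 (-0.21 to 0.33), in 20CBD Slc9a3 (-0.0197 to 0.31), Car14 (-0.18 to 0.13) and Car15 (-0.12 to 0.47), and between the doses Slc9a3 (-0.145 to 0.1655), Slc4a4 (-0.37 to 0.059), Car2 (-0.0394 to 0.23), Car4 (-0.0017 to 0.0967), Car14 (-0.0494 to 0.26) and Car15 (-0.19 to 0.40). The median correlation of the 28 pairs was -0.0525 in those libraries. The causes were not tested. Car15 had too few counts for a statement on either dose.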
